A study of Mus musculus with 24 samples.

Results

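Genes of the hedgehog pathway, 9 in all, were followed in the jaws of mouse embryos: the ligand gene Shh, the receptor and antagonist genes Ptch1 and Hhip, the co-receptor gene Boc, the transducer gene Smo, the inhibitor gene Sufu, and the transcription factor genes Gli1, Gli2 and Gli3. They were chosen by symbol in the array annotation, which assigns 24 of the 45101 probe sets to these 9 genes and to no other gene. Where a gene had several probe sets, the brightest one over the 24 arrays stood for it, and the others are given beside the results they bear on. A further probe set each of Shh, Gli3, Smo and Boc lay under the filter and was not tested. All 9 of these were measurable above the filter on low values, out of 13850 genes tested and 18194 genes represented.

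The tissue came from C57B6 embryos at embryonic day 13.5. Mutant embryos carried the Wnt1-Cre transgene and 2 floxed copies of Tgfbr2 (Tgfbr2 fl/fl), which removes this TGF-beta receptor from neural crest cells and their descendants. Wnt1-Cre does not act in most oral epithelium. Controls were littermates from the same cross (Wnt1-Cre; Tgfbr2 fl/+ with Tgfbr2 fl/fl), and the labels do not say which of them carried Cre. Each jaw was split into a distal and a proximal end, which gave 8 groups (2 genotypes, 2 jaws, 2 ends) of 3 arrays each. The labels do not say whether arrays of a group come from separate embryos or pools, and the spread behind each p-value is that between arrays, part of which may be technical.

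Hedgehog proteins are secreted signals. In the absence of ligand the receptor PTCH1 holds the membrane protein SMO inactive, and GLI proteins, restrained by SUFU, are cut into repressors. Binding of SHH to PTCH1, helped by co-receptors such as BOC, CDON and GAS1, frees SMO, and the GLI proteins then act as activators. Ptch1, Gli1 and Hhip are themselves targets of the pathway, and PTCH1 and HHIP bind the ligand and limit its reach. In the developing face Shh is made by epithelium, including the thickenings that form teeth, and the mesenchyme derived from neural crest below it responds.

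The 4 arrays that share a genotype and a replicate number are called a set here. Tgfbr2 read higher in the mutant arrays at its brightest probe set (log2 difference averaged over the 4 regions 0.31, limma adjusted p = 0.00030), and differed by -0.18 and -0.06 at the other, dimmer ones. No source used here says which part of the transcript the 3 probe sets cover. The readings therefore do not check the labels, and "mutant" stands for arrays labelled so. Xist averaged 6.31 in control set 1 and 6.50 in mutant set 1 and 13.2 to 13.7 in the other 4 sets. Transcripts of 3 Y-linked genes averaged 9.97 in control set 1, 3.82 and 3.88 in control sets 2 and 3, and 8.81 to 10.01 in the mutant sets. Both kinds of transcript were thus present in mutant sets 2 and 3, and only Xist was high in control sets 2 and 3. Sex make-up therefore differed between the genotypes, and its part in their differences was not tested. The Gapdh control probe sets at the 3′ and the 5′ end of the transcript differed (3′ minus 5′), a measure of RNA integrity and labelling, by 0.46 and 0.54 in mutant sets 1 and 3 and between 0.014 and 0.071 in the other 4 sets. The jaw labels were checked in control arrays with 5 mandibular markers (Hand2, Hand1, Dlx3, Dlx5 and Dlx6), of which 3 were called higher in the mandible distally and 1 proximally, and 0 lower. Hand2 differed by 5.16 and 3.52 on the log2 scale, and Dlx5 (-0.21 and -0.19) and Dlx6 (-0.076 and -0.18) did not pass. Of 2 maxillary markers, Pou3f3 was called lower in the mandible at both ends (-0.56 and -0.58) and Nr2f1 distally (-2.52).

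**Figure D1:**
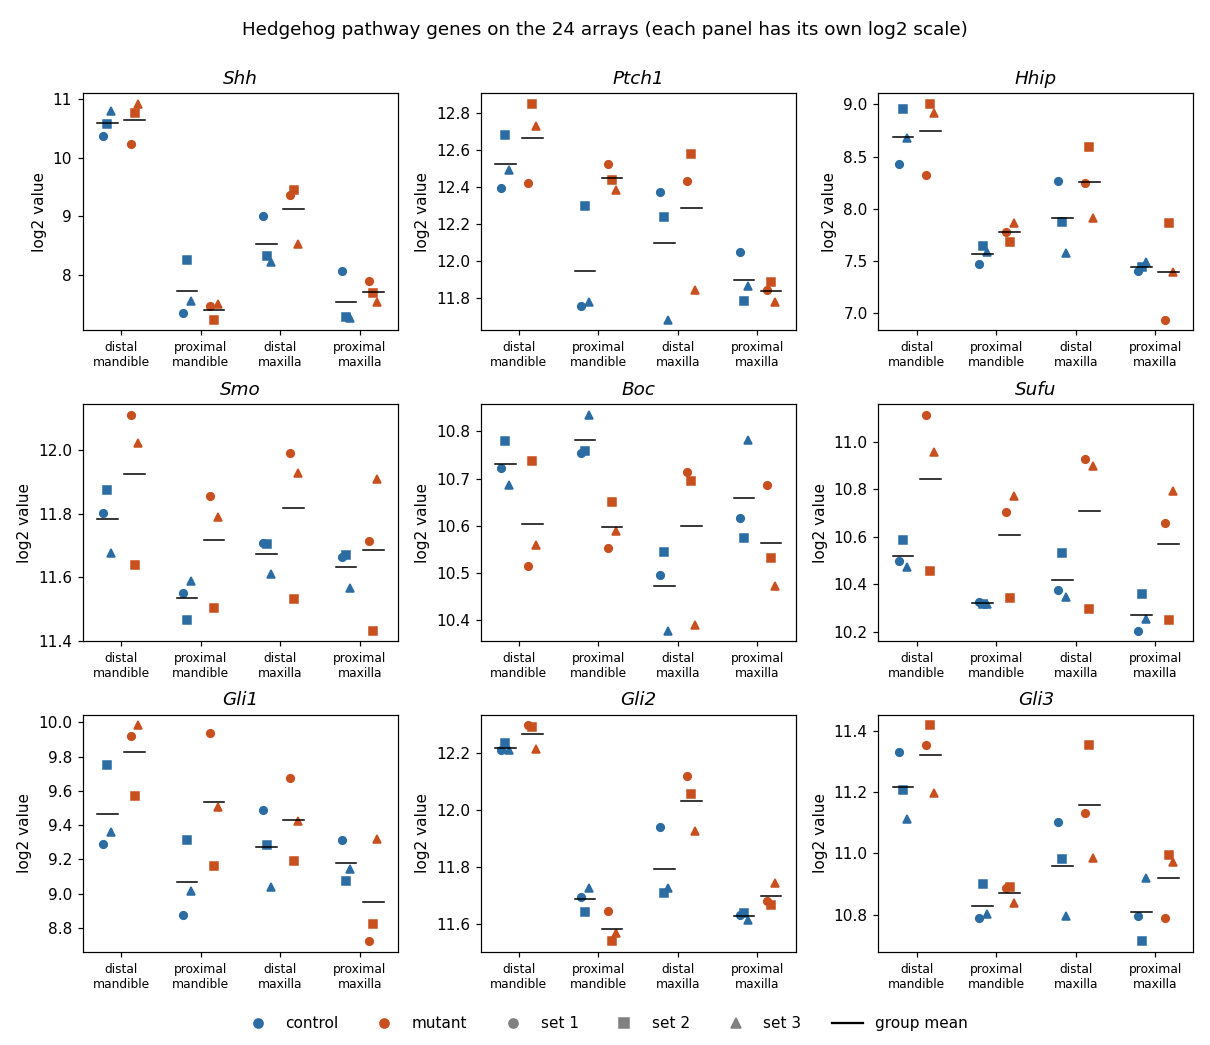
Log2 value (y axis, own scale in each panel) of the 9 hedgehog pathway genes in the 4 regions (x axis). Each point is 1 array, coloured by genotype and shaped by set, and black lines are group means of 3 arrays. All 6 Shh values of the distal mandible lie between 10.23 and 10.92, above every other array, and the Sufu values of mutant set 2 lie with the controls while those of mutant sets 1 and 3 lie above them.

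Shh was higher at the distal end of both jaws, and most of all in the distal mandible. In control embryos Shh read 10.38, 10.57 and 10.80 in the distal mandible against 7.35, 8.26 and 7.55 in the proximal mandible. In the maxilla the control values were 9.01, 8.33 and 8.22 distally and 8.07, 7.29 and 7.26 proximally. Distal and proximal arrays did not overlap in either jaw. The difference was 2.86 ± 0.285 (log2, SE, n = 3 per group) in the mandible, a 7.28-fold difference with limma adjusted p = 4.3e-06. It was 0.98 ± 0.285 in the maxilla, 1.97-fold, with adjusted p = 0.048. The maxilla call was lost without control set 1, 2 or 3 (adjusted p = 0.12, 0.20 and 0.26) or mutant set 2 (0.063), and with no filter (0.056). The other Shh probe set, under the filter on all 24 arrays, gave 0.57 in the control mandible and 0.075 in the control maxilla, without a test.

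In mutant embryos Shh read 10.23, 10.76 and 10.92 in the distal mandible and 7.47, 7.24 and 7.50 in the proximal mandible. The maxilla gave 9.36, 9.45 and 8.53 distally and 7.91, 7.69 and 7.53 proximally. Again no distal array overlapped a proximal one. The limma differences were 3.23 ± 0.285 in the mandible (9.39-fold, adjusted p = 5.6e-07) and 1.41 ± 0.285 in the maxilla (2.65-fold, adjusted p = 0.0061, and 0.11 without mutant set 2). The order of the 8 Shh group means ran from the mutant and control distal mandible (10.63 and 10.58) to the mutant and control distal maxilla (9.12 and 8.52) and then to the 4 proximal groups (7.72 to 7.40). Of the neighbours in this order, only the control distal mandible and the mutant distal maxilla did not overlap.

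The step from proximal to distal was larger in the mandible than in the maxilla. For Shh the difference between the jaws in this step was 1.89 ± 0.403 in controls (limma adjusted p = 0.016) and 1.82 ± 0.403 in mutants (adjusted p = 0.028). For Gli2, the main activator among the GLI proteins, it was 0.37 ± 0.0874 in controls (adjusted p = 0.029) and 0.35 ± 0.0874 in mutants (adjusted p = 0.055, and 0.011 under the set as random block). These were 2 of 9 members called in controls, where 2.73% of all tested genes were called, and 1 of 9 in mutants, where 1.32% were. Leaving out a set cost these calls: Shh in controls had adjusted p = 0.13, 0.057 and 0.28 without control set 1, 2 and 3, and Gli2 had 0.13, 0.36 and 0.33. Shh in mutants had adjusted p = 0.061 without control set 3 and 0.062, 0.14 and 0.30 without mutant sets 1, 2 and 3.

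Of the 9 members, 5 were called higher distally in the control mandible (Shh, Ptch1, Hhip, Gli2 and Gli3), where 13.3% of all tested genes were called in either direction. In the control maxilla 1 member was called (Shh; 6.06% of all tested genes). In mutants 4 members were called in the mandible (Shh, Hhip, Gli2 and Gli3; 15.9% of all tested genes) and 3 in the maxilla (Shh, Hhip and Gli2; 5.15%). No member was called lower distally in these 4 comparisons. The median difference of the 9 members was 0.40 in the control mandible, 0.15 in the control maxilla, 0.29 in the mutant mandible and 0.34 in the mutant maxilla, and that of all tested genes lay between 0.00039 and 0.019. The control and mutant comparisons share no arrays.

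**Figure D2:**
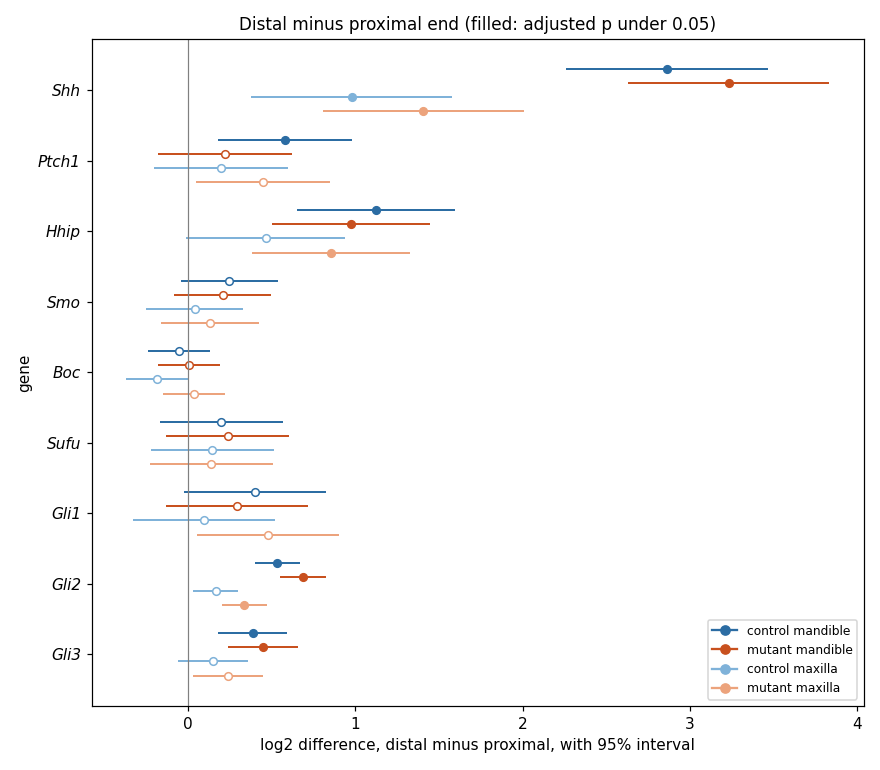
Distal minus proximal log2 difference (x axis) of each gene (y axis) in the 4 combinations of jaw and genotype, with 95% intervals from limma. Filled points had an adjusted p under 0.05. Shh stands at 2.86 and 3.23 in the mandible and at 0.98 and 1.41 in the maxilla, while Boc lies near 0 in the mandible.

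Hhip, which encodes a membrane protein that binds and sequesters hedgehog ligands, had the second largest difference between the ends. Control values were 8.42, 8.96 and 8.68 in the distal mandible and 7.47, 7.64 and 7.58 in the proximal mandible, with a difference of 1.12 ± 0.223 (2.18-fold, limma adjusted p = 0.0018). In the control maxilla they were 8.27, 7.87 and 7.58 distally and 7.40, 7.44 and 7.48 proximally, with a difference of 0.46 ± 0.223 (adjusted p = 0.31), although the arrays did not overlap. The mutant differences were 0.97 ± 0.223 in the mandible (adjusted p = 0.0046) and 0.86 ± 0.223 in the maxilla (adjusted p = 0.030). The other 3 Hhip probe sets gave 0.98, 0.85 and 0.97 in the control mandible, each with adjusted p under the threshold of 0.05 (0.017, 0.0079 and 0.017). The last exceeded the filter's cutoff, the 40th percentile of each array, on 7 arrays, and all its proximal values (at most 5.85) lay under it. It was tested only through its distal values, so its p adds no support. Without control set 2 the control mandible call of the main probe set was lost (adjusted p = 0.053), as was the mutant mandible call without mutant set 3 (0.051). The mutant maxilla call was lost without any one of the 6 sets (0.051 to 0.17) and with the mean of all probe sets.

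Ptch1, the receptor gene and a standard readout of pathway activity, read 12.40, 12.68 and 12.49 in the control distal mandible and 11.75, 12.29 and 11.78 in the control proximal mandible. The arrays did not overlap and the difference was 0.58 ± 0.188 (1.49-fold, limma adjusted p = 0.048). This call rests on little: it was lost without control set 1, 2 or 3 (adjusted p = 0.23, 0.096 and 0.23), without mutant set 1 (0.059) and with no filter (0.058), and the other 2 Ptch1 probe sets, which are dimmer, gave 0.37 and 0.035 with adjusted p = 0.53 and 0.96. In the mutant mandible the difference was 0.22 ± 0.188 (adjusted p = 0.51), and the proximal arrays there read 12.53, 12.44 and 12.38, above all 3 control proximal arrays. In the maxilla it was 0.20 ± 0.188 in controls (adjusted p = 0.76) and 0.45 ± 0.188 in mutants (adjusted p = 0.22).

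Gli1, a target gene that encodes an activator, was called in none of the comparisons. Control values were 9.29, 9.75 and 9.36 in the distal mandible, 8.87, 9.31 and 9.02 in the proximal mandible, 9.49, 9.29 and 9.04 in the distal maxilla and 9.31, 9.07 and 9.14 in the proximal maxilla. Distal and proximal arrays overlapped in both jaws, and the limma differences were 0.40 ± 0.200 (adjusted p = 0.23) and 0.095 ± 0.200 (adjusted p = 0.95). In mutants they were 0.29 ± 0.200 (adjusted p = 0.39) and 0.48 ± 0.200 (adjusted p = 0.22). The 95% interval in the control mandible ran from -0.019 to 0.82, so a difference as large as that of Ptch1 was not excluded.

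Gli2 had a smaller but tighter difference than Shh. In the control mandible it read 12.21, 12.24 and 12.21 distally and 11.69, 11.64 and 11.73 proximally, a difference of 0.53 ± 0.0618 (1.45-fold, limma adjusted p = 1.1e-05). In the mutant mandible it read 12.30, 12.29 and 12.22 against 11.64, 11.54 and 11.57, a difference of 0.69 ± 0.0618 (1.61-fold, adjusted p = 7.0e-07). The distal and proximal ranges stood apart in both genotypes, and the second Gli2 probe set gave 0.75 (adjusted p = 0.0012) and 0.93 (adjusted p = 0.00013). In the maxilla the difference was 0.17 ± 0.0618 in controls (adjusted p = 0.14, and 0.047 under the set as random block) and 0.34 ± 0.0618 in mutants (adjusted p = 0.0034).

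Gli3, which gives rise to the main repressor of the pathway, read 11.33, 11.21 and 11.11 in the control distal mandible and 10.79, 10.90 and 10.80 in the control proximal mandible. The arrays did not overlap, and the difference was 0.39 ± 0.0963 (1.31-fold, limma adjusted p = 0.010). It was 0.45 ± 0.0963 in the mutant mandible (1.37-fold, adjusted p = 0.0027). The control call was lost without control set 1 (adjusted p = 0.19) or control set 2 (0.065). The second bright Gli3 probe set gave 0.36 in controls and 0.40 in mutants, with larger errors (adjusted p = 0.51 and 0.40). In the maxilla the differences were 0.15 and 0.24, with adjusted p = 0.53 and 0.20.

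The genes of signal transfer differed little between the ends. Smo was 0.25 ± 0.136 higher distally in the control mandible (limma adjusted p = 0.28, and 0.038 under the set as random block), and its 3 distal arrays (11.80, 11.87 and 11.68) lay above the 3 proximal ones (11.55, 11.47 and 11.59). Without mutant set 2 the Smo differences passed in the control mandible (adjusted p = 0.014) and the mutant mandible (0.041). Sufu differed by 0.20 ± 0.173 (adjusted p = 0.56), with distal arrays again above proximal ones. It passed without mutant set 2 in the control mandible (adjusted p = 0.036) and in the mutant mandible (0.013). The Gapdh difference in mutant sets 1 and 3 was 0.60 and 0.49 in the distal and 0.25 and 0.29 in the proximal mandible. In the control mandible it was 0.025 to 0.16 distally and -0.074 to -0.027 proximally. Leaving out a mutant set does not change the control differences themselves. It changes the spread, which all groups share, and the adjustment over all genes. The part of the Gapdh difference in the Smo and Sufu differences was not tested. Boc differed by -0.052 ± 0.0861 (adjusted p = 0.80) in the control mandible and by -0.19 ± 0.0861 (adjusted p = 0.28) in the control maxilla, where the 3 distal arrays (10.50, 10.54 and 10.38) lay below the proximal ones (10.62, 10.57 and 10.78). A second Boc probe set was called higher distally in the mutant mandible (0.36, adjusted p = 0.014), where the main one gave 0.0064 (adjusted p = 0.97). The second Smo probe set gave 0.20 in the control mandible (adjusted p = 0.70).

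Promoter sequences of 6 of the 9 members (Gli2, Gli3, Hhip, Ptch1, Smo and Sufu) were held in the RefSeq table used here (GRCm38.p6), as windows of 300 bases around the start of each gene. The stretches upstream of the gene start are shown for Gli3 and Hhip only, both called higher in the distal mandible, trimmed to bases outside the gene. Those of Gli2 and Ptch1, also called there in controls, were not trimmed and are not shown. Capitals mark the GC box GGGCGG on either strand.
Gli3, chr13:15463473-15463722, plus strand: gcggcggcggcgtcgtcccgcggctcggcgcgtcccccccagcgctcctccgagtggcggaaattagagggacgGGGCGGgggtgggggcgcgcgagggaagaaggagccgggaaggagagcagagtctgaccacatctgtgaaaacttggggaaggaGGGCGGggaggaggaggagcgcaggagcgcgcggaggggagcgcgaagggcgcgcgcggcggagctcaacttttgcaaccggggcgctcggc
Hhip, chr8:80058061-80058258, minus strand: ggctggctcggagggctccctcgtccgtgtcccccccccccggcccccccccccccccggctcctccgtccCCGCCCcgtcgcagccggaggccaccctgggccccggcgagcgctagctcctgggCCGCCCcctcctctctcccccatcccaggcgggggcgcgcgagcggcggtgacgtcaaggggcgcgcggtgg

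The Gli3 stretch of 250 bases is 72.8% G and C and the Hhip stretch of 198 bases is 82.3%, and each holds 2 GC boxes. GC boxes stood in 5 of the 6 member windows (all but Smo) and in 35.7% of all 32851 promoter windows. The GLI binding motif GACCACCCA, searched on both strands, stood in none of the 6 windows and in 0.253% of all windows. Its shorter core ACCACCC, which lies within the longer motif, stood in the Gli2 window and in 4.61% of all windows. These matches describe letters in short windows and say nothing about binding, and distal enhancers lie outside them.

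At the distal end Shh was higher in mandible than in maxilla by 2.06 ± 0.285 in controls (4.18-fold, limma adjusted p = 9.1e-05) and by 1.52 ± 0.285 in mutants (2.86-fold, adjusted p = 0.0034). Gli2 followed with 0.43 ± 0.0618 (adjusted p = 0.00014) and 0.24 ± 0.0618 (adjusted p = 0.031). Hhip was higher by 0.78 ± 0.223 in controls (adjusted p = 0.031), with 0.50 ± 0.223 in mutants (adjusted p = 0.29). In controls 3 of 9 members were called higher in the distal mandible against 9.21% of all tested genes in either direction, and in mutants 2 of 9 against 4.92%. Among the members not called in controls, Ptch1 (0.43), Gli3 (0.26) and Boc (0.26) had arrays that did not overlap, with adjusted p = 0.22, 0.12 and 0.075. Under the set as random block, 5 members passed in controls, Gli3 (adjusted p = 0.040) and Boc (0.023) among them. Without control set 2 or 3 the Hhip call was lost (adjusted p = 0.42 in both), without mutant set 3 so was the mutant Shh call (0.16), and the mutant Gli2 call did not last without control set 2 or 3 or any mutant set (0.058 to 0.25). Boc passed without mutant set 3 (0.044).

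At the proximal end no member was called between the jaws in either genotype, against 2.61% of all tested genes in controls and 5.69% in mutants, by limma. At an unadjusted p under 0.05 there were 0 of 9 members in controls and 2 in mutants, against 11% and 17.4% of all tested genes. Those 2 were Ptch1 and Gli1. In mutants Ptch1 read 12.53, 12.44 and 12.38 in the proximal mandible and 11.84, 11.89 and 11.77 in the proximal maxilla, without overlap and with a difference of 0.61 ± 0.188 (adjusted p = 0.065, and 0.018 under the set as random block). Gli1 differed by 0.58 ± 0.200 there (adjusted p = 0.11, and 0.026 with the block). In controls the same differences were 0.045 ± 0.188 and -0.11 ± 0.200 (adjusted p above 0.99 for both). Shh differed by -0.31 ± 0.285 in mutants (adjusted p = 0.69).

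Epithelial markers were also higher at the distal end. The mean log2 value of 10 genes of oral and surface epithelium (such as Krt5, Krt14, Cdh1, Epcam and Trp63), all above the filter, was 11.19 ± 0.10 (SD, n = 3) in the control distal mandible and 10.34 ± 0.084 in the proximal mandible. In the control maxilla it was 10.96 ± 0.12 distally and 9.73 ± 0.13 proximally. Of the 10 markers, 6 were called higher distally in the control mandible and 8 in the control maxilla, with median differences of 0.96 and 1.47. In mutants 7 of 10 were called in each jaw, with median differences of 1.05 in the mandible and 0.82 in the maxilla. The order of the jaws in these medians thus differed between the genotypes, and none of the 10 markers was called in the limma test of the jaw difference of the end effect in either genotype. In bulk tissue a larger share of epithelial cells and more RNA per cell cannot be told apart, and the part of the epithelial share in the Shh difference was not tested.

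**Figure D3:**
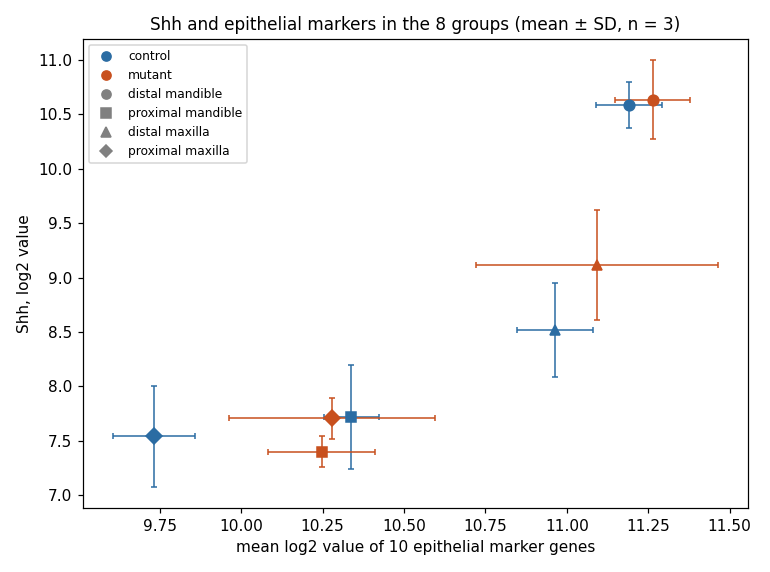
Shh log2 value (y axis) against the mean log2 value of 10 epithelial marker genes (x axis) in the 8 groups, as group mean ± SD (n = 3 arrays). The distal maxilla lies near the distal mandible on the x axis (10.96 and 11.19 in controls) and below it in Shh (8.52 and 10.58).

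Markers of other tissues moved with the ends too. The 5 skeletal muscle markers averaged 9.52 in the control distal mandible and 12.18 in the proximal mandible, against 12.27 and 12.56 in the maxilla. Neuronal markers (6 genes) averaged 9.91 in the control proximal maxilla and 7.73 to 8.22 in the other control groups. Cartilage markers (6 genes) averaged 7.58 in the control distal maxilla and 10.04 to 10.61 in the other control groups. The tooth field list (7 of 8 genes found were above the filter) had means from 9.06 to 9.21 in controls, but its genes went both ways. Between the ends of the control mandible Bmp4 (1.36) and Lef1 (1.15) were called higher distally and Barx1 (-3.24) lower, and between the control distal jaws 1 of the 7 was called higher in the mandible and 2 lower. Of the 4 brain markers found, 3 stayed under the filter. The other, Six3, averaged 7.23 in the mutant distal maxilla and 7.04 in the mutant proximal maxilla, against 6.31 to 6.60 in the control groups. Its highest array read 8.80, and it was not called between the genotypes. The part of these tissues in the differences of the hedgehog genes was not tested.

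The 9 members fell into groups by their pattern over the 24 arrays, given here as a description without a test, since the arrays share regions and sets. Shh correlated at Pearson r = 0.96 with Gli2, 0.89 with Hhip, 0.85 with Gli3, 0.72 with Ptch1 and 0.57 with Gli1. After the group means were subtracted, Shh and Ptch1 still deviated together (r = 0.83), as did Ptch1 and Hhip (0.68), whereas Shh and Gli2 gave 0.36. Smo and Sufu formed another pair (r = 0.92, and 0.95 after subtraction). Gli1 correlated with Smo at 0.74 and with Sufu at 0.66. After subtraction Gli1 gave 0.69 with Smo and 0.59 with Sufu, against 0.28 with Shh and 0.30 with Ptch1. Subtraction leaves differences between sets. Smo, Sufu and Gli1 averaged 11.53, 10.34 and 9.19 in mutant set 2, 11.92, 10.85 and 9.56 in mutant set 1, and 11.91, 10.85 and 9.56 in mutant set 3. The Gapdh difference split the mutant sets likewise, and its part in these correlations was not tested. Over the control arrays alone Smo and Sufu correlated at 0.73. Boc correlated with none of the others beyond r = 0.23 in the positive direction, and after subtraction with Ptch1 at 0.58 and Gli3 at 0.45.

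Among 13841 genes outside the pathway members, those most like Shh over the 24 arrays were Them5 (r = 0.96), Dsc2 (0.96) and Prxl2a (0.95). Dsc2 encodes a desmosomal cadherin of epithelial cell junctions. Most like Ptch1 were Bmp6, which encodes a BMP ligand (r = 0.87), Gnai1, which encodes an inhibitory G protein subunit (0.87), and 9130024F11Rik (0.86). Most like Gli1 were Tbl1xr1 (0.86), Ctdspl (0.85) and Amotl1 (0.82).

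Between the genotypes the members differed little. Averaged over the 4 regions, 1 of 9 members was called (Sufu, higher in mutants), where 33.7% of all tested genes were called. That share itself moved with the setting: it was 11.6% under the set as random block, 0.578% with 1 value per set and 50.3% without mutant set 2. The median difference of the members was 0.13 against 0.020 for all tested genes. By region, no member was called in the distal mandible (0.895% of all tested genes called), the proximal mandible (5.36%) or the proximal maxilla (5.7%), and 1 was called in the distal maxilla (7.08%). At an unadjusted p under 0.05, limma gave 0, 3 and 0 members in the 3 regions without calls, against 15.1%, 19.6% and 21.4% of all tested genes. The genotype difference itself was compared between jaws and also between ends, and 0% of all tested genes were called in either. At an unadjusted p under 0.05 these comparisons held 480 and 430 of 13850 genes, and 2 members (Gli1 and Gli2) and 1 member (Gli2).

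**Figure D4:**
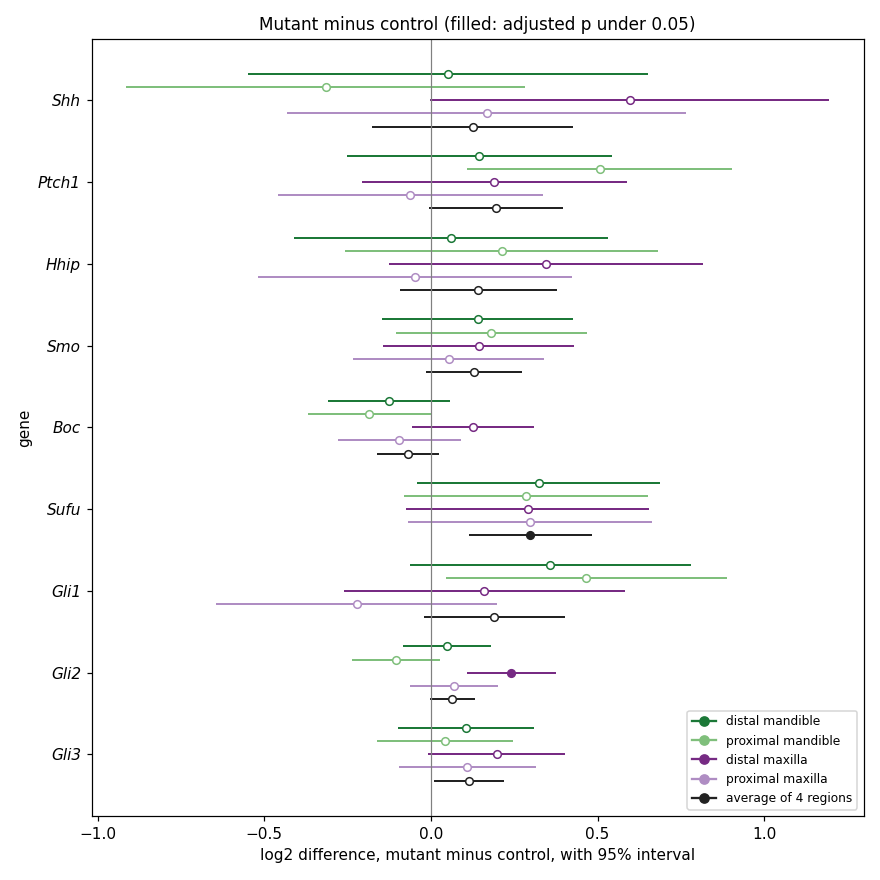
Mutant minus control log2 difference (x axis) of each gene (y axis) in the 4 regions and averaged over them, with 95% intervals from limma. Filled points had an adjusted p under 0.05, which held for Gli2 in the distal maxilla (0.24) and Sufu in the average (0.30).

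Shh itself differed by 0.12 ± 0.142 on average (limma adjusted p = 0.53), with a 95% interval from -0.17 to 0.42. The regional values were 0.052 in the distal mandible, -0.32 in the proximal mandible, 0.60 in the distal maxilla and 0.17 in the proximal maxilla, with adjusted p from 0.22 to 0.96, and control and mutant arrays overlapped in all 4.

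Gli2 was higher in the mutant distal maxilla, where it read 12.12, 12.06 and 11.93 against 11.94, 11.71 and 11.73 in controls. The difference was 0.24 ± 0.0618 (1.18-fold, limma adjusted p = 0.026), and the arrays overlapped, since the highest control lay just above the lowest mutant. The call was lost without control set 2 (adjusted p = 0.18), control set 3 (0.22) or mutant set 1 (0.11), and in the mean of both Gli2 probe sets (0.25, adjusted p = 0.11). Epithelial, neuronal and cartilage lists varied widely among the 3 mutant distal maxilla arrays, with means of 11.09 ± 0.37, 8.32 ± 1.01 and 8.73 ± 1.97 (SD, n = 3). Their part in the Gli2 difference was not tested.

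In the proximal mandible the mutant arrays of Ptch1 (12.53, 12.44 and 12.38) lay above the control arrays (11.75, 12.29 and 11.78), with a difference of 0.51 ± 0.188 (1.42-fold, limma adjusted p = 0.13). With the Gapdh difference as a covariate it was 0.65 (adjusted p = 0.022). Gli1 there read 9.94, 9.16 and 9.51 in mutants and 8.87, 9.31 and 9.02 in controls, with overlap and a difference of 0.47 ± 0.200 (adjusted p = 0.20). It passed without mutant set 2 (0.65, adjusted p = 0.044). Ptch1, Hhip, Sufu and Boc had separate arrays in this region, with Boc lower in mutants (-0.18, adjusted p = 0.24), and none passed.

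Averaged over the regions, Ptch1 differed by 0.19 ± 0.0941, Gli1 by 0.19 ± 0.0999, Hhip by 0.14 ± 0.112 and Gli3 by 0.11 ± 0.0481, with limma adjusted p from 0.076 to 0.34. With the Gapdh difference as a covariate Ptch1 (0.38, adjusted p = 0.015), Hhip (0.37, adjusted p = 0.037) and Gli3 (0.21, adjusted p = 0.0071) were called higher in mutants and Gli1 was not (-0.037, adjusted p = 0.82). Without mutant set 3 Gli3 passed (0.15, adjusted p = 0.042), and without mutant set 2 Gli1 did (0.32, adjusted p = 0.016). The second Gli3 probe set was called in the average (0.52 ± 0.124, limma adjusted p = 0.0042, in a fit without a set term), against 0.11 for the main probe set. The third, under the filter and not tested, gave -0.27. An alternative added after the data were seen left out mutant sets 1 and 3. It leaves 1 mutant array per region and takes its spread from the control arrays alone. There Gli3 gave 0.21, Hhip 0.39 and Ptch1 0.32. Within groups the Gapdh difference varied mainly between mutant set 2 (mean 0.059) and mutant sets 1 and 3 (0.46 and 0.54). In the average, this fit and the covariate fit thus both compare controls mainly with mutant set 2, and neither adds support to the other.

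Sufu, whose product holds GLI proteins inactive, was the single member called in the average (0.30 ± 0.0865, 1.23-fold, limma adjusted p = 0.012). The 4 arrays of a set averaged 10.35, 10.45 and 10.35 in control sets 1, 2 and 3, and 10.85, 10.34 and 10.85 in mutant sets 1, 2 and 3. Mutant set 2 thus lay at the level of the controls. The call was lost under the set as random block (adjusted p = 0.050, above the threshold) and with 1 value per set (0.28). It was also lost without control set 1 or 3 (adjusted p = 0.079 and 0.078) and without mutant set 1 or 3 (0.097 and 0.11). Without mutant set 2 Sufu passed in each of the 4 regions, with differences of 0.42 to 0.52.

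The 3 Sufu probe sets went different ways. The brightest gave the difference of 0.30, the next gave -0.0077 (adjusted p = 0.93), and the dimmest was called lower in mutants (-0.30 ± 0.0612, limma adjusted p = 0.0014). This dimmest probe set exceeded the 40th percentile of its array on 8 of the 24 arrays. Its mutant group means (5.97 to 6.09) lay under the lowest such percentile (6.26), so low signal limits its call. The mean of all 3 was -0.0016. When the Gapdh difference entered as a covariate, the brightest probe set gave -0.026 (adjusted p = 0.65), and without mutant sets 1 and 3 it gave -0.046. Both fits compare the controls mainly with mutant set 2. Smo behaved in the same manner, with set means of 11.92, 11.53 and 11.91 in mutants and 11.61 to 11.68 in controls. Its average difference was 0.13 ± 0.0678 (adjusted p = 0.15), 0.26 without mutant set 2 (adjusted p = 3.9e-05), -0.11 with the covariate (adjusted p = 0.038) and -0.13 without mutant sets 1 and 3 (adjusted p = 0.027). Without mutant set 2 Smo also passed in the distal mandible, proximal mandible and distal maxilla (0.28 to 0.29). That fit keeps mutant sets 1 and 3, those with the larger Gapdh differences. It counts the 4 arrays of a set as separate. With all sets, no member was called in the average under the set as random block or with 1 value per set. Over the 12 mutant arrays Smo and Sufu correlated at r = 0.98.

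**Figure D5:**
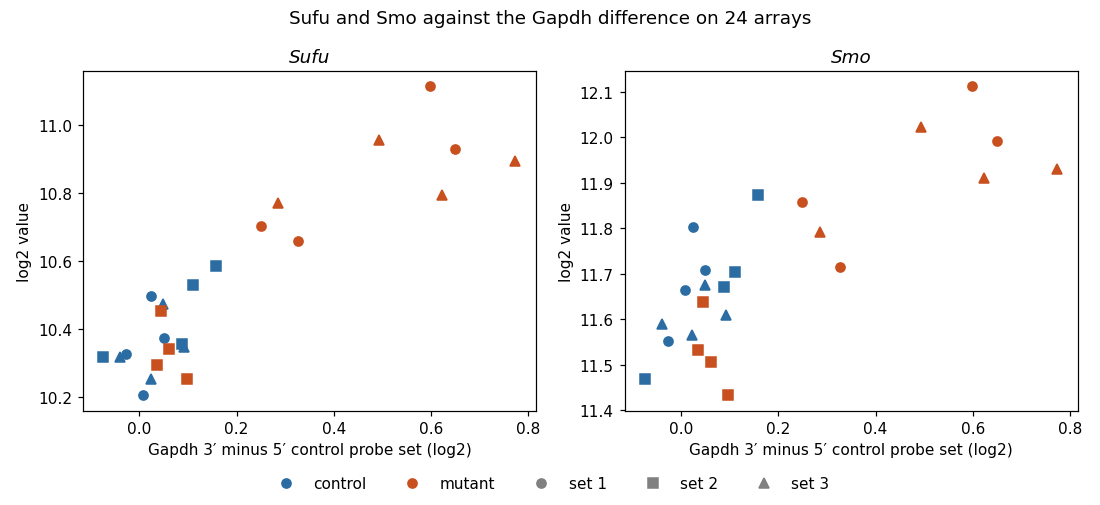
Log2 value (y axis) of Sufu and of Smo on the 24 arrays against the Gapdh 3′ signal minus its 5′ signal (x axis, log2). Colour marks genotype and shape marks set. Mutant sets 1 and 3 lie to the right (set means 0.46 and 0.54) and high, and mutant set 2 lies among the controls.

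A list of 47 other pathway genes, chosen with earlier results of these data known, gave 42 that were tested. Among the rest, Lrp2 and Nkx2-2 stayed under the filter. In the average genotype effect 8 were called higher and 2 lower in mutants, 23.8% of the 42 against 33.7% of all tested genes, with a median of 0.060 against 0.020. The 4 largest were Foxd2 (0.56 ± 0.194, limma adjusted p = 0.031), a forkhead gene of facial mesenchyme, Prkaca (0.33 ± 0.0592, adjusted p = 0.00032), the catalytic subunit of protein kinase A that marks GLI proteins for processing, Hsd11b2 (0.32 ± 0.0653, adjusted p = 0.0012), and Evc2 (0.24 ± 0.0574, adjusted p = 0.0034), a ciliary partner of SMO. The 2 lower ones were Mycn (-0.18, adjusted p = 0.0014) and Arrb2 (-0.14, adjusted p = 0.012). Under the set as random block 2 of these 10 calls were kept, Prkaca (adjusted p = 0.017) and Hsd11b2 (0.046), and Evc2 (0.054), Mycn (0.057), Arrb2 (0.15) and Foxd2 (0.28) were lost. With the Gapdh difference as covariate 4 were kept, Prkaca (0.16, adjusted p = 0.026), Mycn (0.023) and Arrb2 (0.025) among them, and with 1 value per set 0 were. In the covariate fit 5 of the 42 were called higher and 10 lower in mutants, 35.7% against 42.2% of all tested genes. Foxd2 was also lost without control set 2 or 3 (0.11 and 0.18) or mutant set 1 (0.083), and Arrb2 without control set 3 (0.13). By region 1 call was made, Mycn in the proximal maxilla (-0.39, adjusted p = 0.0082).

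Neither of the other ligand genes was called higher distally. Dhh was lower distally in all 4 comparisons of the ends, by -0.69 ± 0.114 in the control mandible (limma adjusted p = 0.00034), -0.40 in the control maxilla (0.042), -0.95 in the mutant mandible (1.2e-05) and -0.53 in the mutant maxilla (0.0093). Ihh, a ligand of growing cartilage, was lower distally in the mutant mandible (-1.002 ± 0.225, adjusted p = 0.0039), with -0.44 in the control mandible (adjusted p = 0.24). In mutants it was higher in the proximal mandible than in the proximal maxilla by 1.09 (adjusted p = 0.0058). The cartilage list, of which Ihh is one gene, averaged in the mutant proximal mandible 11.33 ± 0.25, the highest of the 8 groups, against 10.61 ± 0.46 in controls.

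Of the 2 co-receptors tested beside Boc, Gas1 was higher distally in the control maxilla (0.18 ± 0.0471, limma adjusted p = 0.029) and the mutant mandible (0.20, adjusted p = 0.0065), and Cdon was called in none of the comparisons. Of the 42 genes, 2 were called higher and 2 lower distally in the control mandible (9.52% against 13.3% of all tested genes): Mycn (0.33, adjusted p = 0.0070) and Gpr161 (0.24, adjusted p = 0.026), a ciliary receptor that restrains the pathway, against Dhh and Ccnd1 (-0.31, adjusted p = 0.029). In the control maxilla 1 was called higher and 4 lower (11.9% against 6.06%), with Foxc2 at -3.14 ± 0.435 (adjusted p = 0.00017) and Hsd11b2 at -0.70 (adjusted p = 0.0023) the largest. In mutants 5 were called higher and 3 lower distally in the mandible (19.0% against 15.9%), and 1 higher and 3 lower in the maxilla (9.52% against 5.15%). In the distal control jaws 4 differed (9.52% against 9.21%): Scube3 (0.99, adjusted p = 0.0054) and Gpc3 (0.33, adjusted p = 0.0012) were higher in the mandible, and Scube2 (-1.86, adjusted p = 0.0057) and Osr2 (-0.87, adjusted p = 0.016) lower. SCUBE2 and SCUBE3 help release lipid-bearing ligand.

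None of the forkhead genes Foxf1, Foxf2 and Foxd1, targets of hedgehog signalling in facial mesenchyme, passed between the mandible ends. Foxf2 differed by 1.66 ± 0.664 (distal minus proximal) in the control mandible and by 1.48 ± 0.664 in the mutant one, with separate arrays and limma adjusted p = 0.12 and 0.15. Foxf1 differed by 0.43 ± 0.588 (adjusted p = 0.75) and Foxd1 by 0.80 ± 0.621 (adjusted p = 0.50) in the control mandible. Between genotypes Foxf1 (0.23), Foxf2 (0.14) and Foxd1 (0.55) did not pass in the average, with adjusted p from 0.18 to 0.78.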

How the data were processed

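RNA was isolated on RNeasy columns, and 5 µg of it per sample was turned into biotinylated cRNA for hybridisation, per the labels' protocols. The deposited log2 values were made by the authors with RMA, per the submitters' processing notes; neither its version nor which arrays were normalized together is stated there. RMA summarises the probes of a set, so levels of different probe sets cannot be compared. Genes were kept where their brightest probe set exceeded its array's 40th percentile on at least 3 arrays. limma 3.58.1 (R 4.3.3) was fitted to the 24 arrays with 8 group coefficients, which leaves 16 residual degrees of freedom. A gene was called when its p, adjusted by Benjamini and Hochberg's method over 13850 genes, was under 0.05. Errors are SE of the log2 difference unless marked SD. The fit was tested on simulated data. The number of arrays limits the precision.

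The members and lists were chosen with earlier results of these data known. Named are all 9 members, up to 4 called pathway genes with the largest difference per comparison, the genes Foxf1, Foxf2, Foxd1, Foxd2, Ihh, Gas1 and Cdon, and the 3 genes most like each of Shh, Ptch1 and Gli1; an item of this rule is not reported here. Arrb2, and Mycn in the average genotype effect, fall outside that rule and were named after their values were seen. The jaw comparison of the mutant end effect, the fit without mutant sets 1 and 3 and the alternatives for the other pathway genes were added after the data were seen. Alternatives were the mean of all probe sets, no filter, a second quantile normalization, the set as random block (statmod 1.5.0), the Gapdh difference as covariate, 1 value per set, and leaving out each set.

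Arrays of the same genotype and number deviated together. Every correlation of their deviations from the group means lay between 0.11 and 0.70 in the comparisons within a genotype, except in the control proximal jaws (0.0040 for replicate 2). Those numbers may therefore mark pairs, which rests on the values and not on the labels. All p-values are from the fit without a set term unless the random block is named. Between genotypes the correlations ran from -0.13 to 0.40, and the numbers were not taken as pairs.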

Additional observations from a re-analysis of the deposited data

Results flagged for a closer look

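The distal minus proximal difference of Shh was larger in the mandible than in the maxilla by 1.89 in controls and by 1.82 in mutants, each by its own limma test of that difference (adjusted p = 0.016 and 0.028). The same held in controls for Gli2, by 0.37 (adjusted p = 0.029), and for Mycn, by 0.48 (adjusted p = 0.024).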

How the results depend on the processing

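Counts of members called depended on the setting. With the mean of all probe sets they were 0 for the average genotype effect and the distal maxilla, 3 for the control mandible ends, 0 for the control maxilla ends, 1 and 0 for the jaw difference of the end effect in controls and mutants, 1 for the mutant distal jaws and 1 for the mutant proximal jaws. Without the filter the control maxilla ends gave 0, and after a second quantile normalization the mutant distal jaws gave 1. With the set as a random block, as the replicate block, the counts were 0 for the average genotype effect, 2 for the control maxilla ends, 2 for the jaw difference of the end effect in mutants, 5 for the control distal jaws and 2 for the mutant proximal jaws; no other comparison's count moved by more than 1.5 times under the block. With the Gapdh difference as a covariate they were 4, 1 and 2 for the average genotype effect, the proximal mandible and the distal maxilla, and 2 and 1 for the mutant end effect between jaws and the mutant proximal jaws. With 1 value per set the average gave 0. Without mutant sets 1 and 3 it gave 3, and the control maxilla ends, mutant maxilla ends, mutant end effect and mutant distal jaws gave 0.

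Leaving out each set in turn gave 0 to 3 members for the average genotype effect, 0 to 2 in the distal mandible, 0 to 3 in the proximal mandible and distal maxilla and 0 to 1 in the proximal maxilla. It gave 2 to 7 between the ends of the control mandible, 0 to 1 in the control maxilla, 3 to 6 in the mutant mandible and 1 to 2 in the mutant maxilla, 0 to 2 and 0 to 1 for the jaw difference of the end effect in controls and mutants, 2 to 4 in the control distal jaws and 0 to 2 in the mutant distal jaws. Calls over all tested genes moved too, from 21% to 50.3% in the average genotype effect, from 0.0144% to 21% in the distal mandible, and from 5.66% to 19.6% between the control mandible ends.

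Of the 23 calls of a member, 6 were kept under every alternative run: Shh and Gli2 between the ends of the control and mutant mandible and between the control distal jaws. No call reversed except Sufu in the average genotype effect: -0.0016 with the mean of probe sets, -0.026 with the covariate and -0.046 without mutant sets 1 and 3. Sufu also turned sign, without a call on either side, with the mean of probe sets in the proximal mandible (-0.048) and distal maxilla (-0.018). With the covariate it did so in the distal maxilla (-0.13) and proximal maxilla (-0.023). Without mutant sets 1 and 3 it did so in the distal mandible (-0.065), distal maxilla (-0.12) and proximal maxilla (-0.020). With the covariate Smo turned to -0.11 in the average (called), -0.092 in the distal mandible, -0.0081 in the proximal mandible and -0.17 in the distal maxilla, and Gli1 to -0.037 in the average. Without mutant sets 1 and 3 Smo turned to -0.13 (called), -0.15, -0.031 and -0.14 in the same order, and Gli1 to -0.059. Leaving out a set lowers the number of arrays and of residual degrees of freedom, and it also changes the spread shared by all groups. Without mutant set 2 calls in the average genotype effect rose, from 33.7% to 50.3% of all tested genes. The causes of the changes between settings were not tested. Low signal limits the probe sets under the filter, of Shh, Gli3, Smo and Boc. It also limits the dimmest probe sets of Hhip and Sufu, which exceeded the 40th percentile on 7 and 8 of the 24 arrays.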
